A study of Mus musculus with 12 samples.

Results

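The genes described here are 9 genes of epithelial tight junctions and cell polarity, namely Pard3, Magi1, Cgn, Tjp1, Ocln, Cldn1, Cldn4, F11r and Scrib, out of 21887 protein-coding genes counted in the same way. They were chosen by name, and each contact counted lay inside the GRCm38 span of the gene on the gene's own strand. Contacts of the RNA-binding protein ESRP1 were mapped by eCLIP, an assay that fixes a protein to its RNA by ultraviolet light, recovers the pair with an antibody and reads the touched nucleotide from where reverse transcription stops. The tissue was epidermis from the back skin of mouse pups on postnatal day 1, and every library came from animals of genotype Esrp1FLAG/FLAG, whose own ESRP1 carries a FLAG tag, so that no untagged animal serves as a control. The labels name 6 libraries precipitated with FLAG antibody and 6 input libraries, as biological replicates 1 to 6, taken from gel regions of 75 to 140 kDa. The values are 3 lists of single-nucleotide sites with a score, and for each list the authors pooled 2 replicates and used input in the call. List 1 comes from replicates 1 and 2, list 2 from replicates 3 and 4, and list 3 from replicates 5 and 6.

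Tight junctions seal the space between neighbouring epithelial cells. Claudins and occludin form strands in the membrane, JAM adhesion molecules stand beside them, and the scaffolds ZO-1, cingulin and MAGI-1 tie the strands to the actin cytoskeleton. The PAR and Scribble complexes set the apical and basolateral sides of the cell, and PAR3, encoded by Pard3, is recruited to young junctions through JAM-A, encoded by F11r. In skin the junctions of the granular layer hold water, and ESRP1 is an epithelial splicing regulator that binds in and around the exons it controls. The lists hold no read counts, so neither library depth nor expression of these genes is known, and for a gene with few sites little contact and little RNA cannot be told apart.

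The lists held 73602, 40014 and 53864 sites in lists 1, 2 and 3, of which 122, 79 and 84 lay in the 9 genes. This was 16.6, 19.7 and 15.6 sites per 10000 of the list, so the genes took a like share of each list. A region is a run of sites with gaps of up to 10 nt within a list, and it counts as shared where another list has a region no more than 10 nt away. Among markers of epidermis 9 of 12 genes had a site, with 30, 16 and 34 sites in the basal keratin gene Krt5, whereas Krt14, Krt1 and Lor had none. Sites were present in 3 of 6 melanocyte genes, 3 of 7 dermal fibroblast genes and 1 of 5 immune genes. None lay in the 6 genes of endothelium and muscle. A site was present in 34.8% of all protein-coding genes, and a region in all 3 lists in 17.0%. Such regions lay in 6 of 12 epidermal, 1 of 6 melanocyte, 1 of 7 dermal fibroblast and 1 of 5 immune genes. Outside epidermis these genes were Mitf, Sparc and Csf1r. Mitf had 6, 7 and 6 sites in lists 1, 2 and 3. Sparc had 10, 1 and 13, and Csf1r 7, 5 and 5. No genome sequence or exon annotation was used here, so regions are given by position in the span and not as exon, intron or untranslated region.

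Contacts were unevenly spread over the 9 genes. Pard3, Magi1, Cgn and Tjp1 held 242 of the 285 sites. Each of the 9 genes had a site in at least 1 list, and 6 of them (66.7%, 95% exact binomial interval 29.9 to 92.5) had a region found in all 3 lists. Over all protein-coding genes 17.0% had a region in all 3 lists and 34.8% had a site in any list. The 6 genes were Pard3 with 8 such regions, Magi1 and Cgn with 3 each, Cldn4 with 2, and Tjp1 and Scrib with 1 each. Ocln, Cldn1 and F11r had none. The genes were chosen with these results known, so the count is a description. The share of all genes with such a region was higher in longer genes. It was 5.76% up to 5000 nt, 22.4% from 20000 to 100000 nt and 37.5% over 300000 nt.

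**Figure D1:**
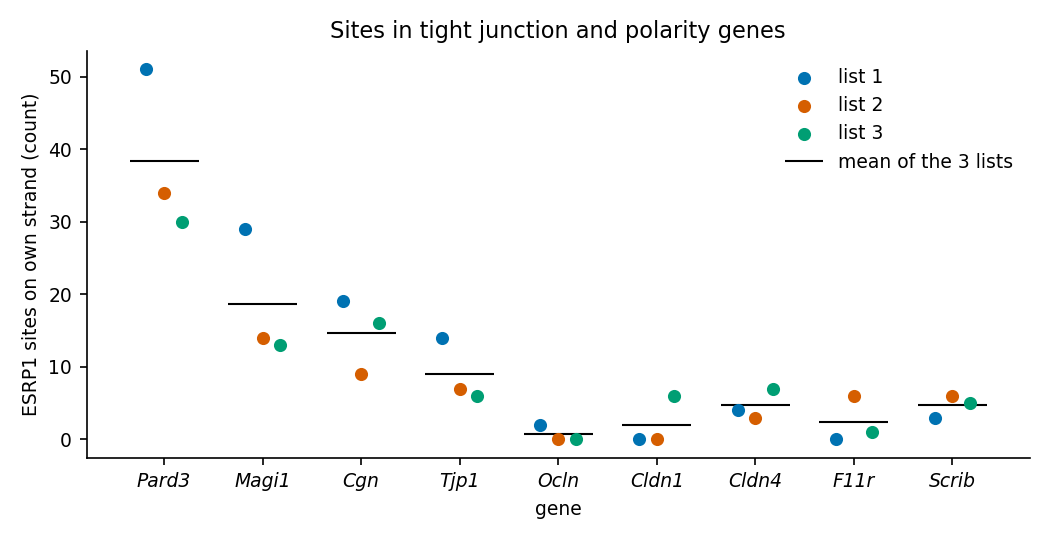
ESRP1 sites on the gene's own strand (count, vertical axis) in each of the 9 genes, with 1 point for each of the 3 lists and a line at their mean. Pard3 had 51, 34 and 30 sites in lists 1, 2 and 3, and Ocln, Cldn1 and F11r had at least 1 list with no site.

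Pard3 encodes the central scaffold of the PAR polarity complex, which binds PAR6 and atypical protein kinase C. Its span covers chromosome 8, 127063381 to 127612286, on the plus strand and is 549 kb long. It held 51, 34 and 30 sites in lists 1, 2 and 3 (38.3 ± 11.2, SD, n = 3 lists). List 1 is the largest list, and per 10000 sites of a list the values were 6.93, 8.50 and 5.57, with list 2 the highest. Of all protein-coding genes, 15 (0.0685%), Pard3 among them, had 8 or more regions in all 3 lists, and 13, again with Pard3, had at least as many sites. Per 100 kb of span Pard3 had 1.46 such regions, less than Scrib with 4.42, Cgn with 10.8 and Cldn4 with 110, whose spans are short.

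The strongest Pard3 region covered chromosome 8, 127504795 to 127504797, 441 kb from the 5′ end of the span. All 3 of its nucleotides were called in all 3 lists. The middle nucleotide, 127504796, scored highest in every list, with 202, 254 and 115 in lists 1, 2 and 3, which put it at percentiles 98.7, 99.6 and 96.0 of its list. Its neighbour 127504795 scored 146, 220 and 81.6, and the other neighbour, 127504797, scored 124, 137 and 57.3. The scale of the score is not stated, so it ranks sites only within a list. The second strongest Pard3 region by mean percentile lay at 127612178 to 127612188, 98 nt from the 3′ end of the span, with highest scores of 148, 61.2 and 66.4.

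The other 6 Pard3 regions in all 3 lists fell into an early and a middle group. The early group lay 84.7 to 108 kb from the 5′ end, at 127148054 to 127148060, 127165914 to 127165917, 127171315 to 127171317 and 127171334 to 127171345. Its last 2 regions stand 17 nt apart, just past the joining distance, and were counted as 1 region when 50 nt was allowed. Their highest scores were 98.4, 63.5 and 8.02 in lists 1, 2 and 3 for the first and 75.1, 25.5 and 60.0 for the second. List 3 thus gave its weaker score to the first of the pair, whereas lists 1 and 2 gave their stronger one. The middle group lay at 127329528 to 127329529 and 127372725 to 127372733, 266 and 309 kb from the 5′ end. No region in all 3 lists fell in the first 84.7 kb or between 108 and 266 kb.

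**Figure D2:**
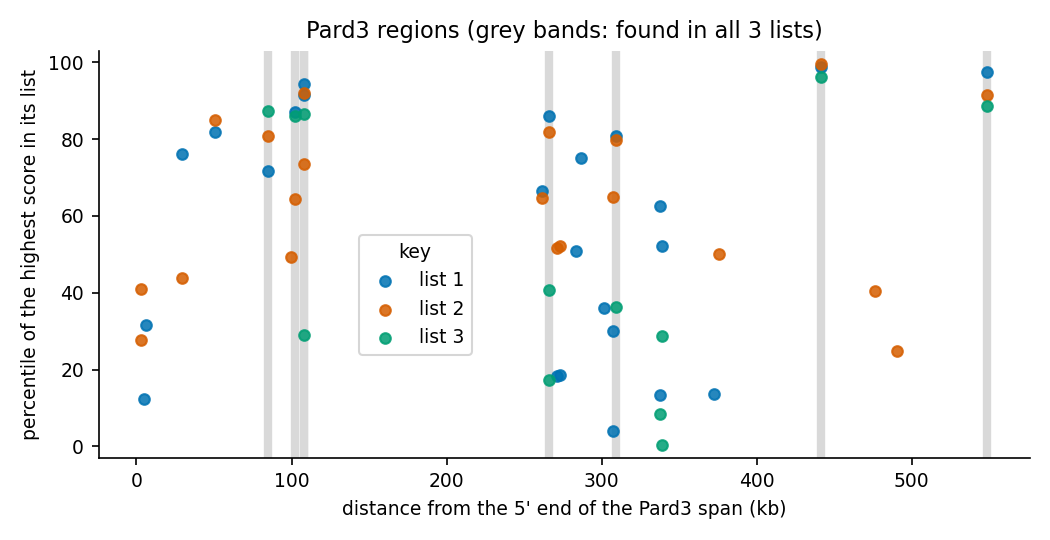
Percentile of the highest score of each Pard3 region within its list (vertical axis) against distance from the 5′ end of the span in kb (horizontal axis), with 1 colour for each list and grey bands at the 8 regions found in all 3 lists. The region 441 kb along the gene stands at percentile 98.7, 99.6 and 96.0 in lists 1, 2 and 3.

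Pard3 had 34 regions over the lists together. Of these, 8 (23.5%, 95% exact binomial interval 10.7 to 41.2) were in all 3 lists, against 18.9% of the 32584 regions in protein-coding genes. A further 6 were in lists 1 and 2, and none were in lists 1 and 3 or in lists 2 and 3. Regions of list 1 alone numbered 10, of list 2 alone 6 and of list 3 alone 4. Requiring lists 1 and 2 only, Pard3 had 14 regions, whereas requiring lists 1 and 3, or 2 and 3, gave 8 each. Among the 50% of sites with the highest scores in each list 5 Pard3 regions were in all 3 lists.

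Scrib encodes the Scribble scaffold of the basolateral side. Its span covers chromosome 15, 76047162 to 76069784, and its strand, minus, was taken as the strand that holds all its sites. The lists held 3, 6 and 5 sites, and no nucleotide was called in more than 1 list. The region counted in all 3 lists, 76059484 to 76059496, consists of 1 site per list, at 76059492 in list 1, 76059496 in list 2 and 76059484 in list 3. Their scores were low, at 5.11, 1.27 and 3.65, or percentiles 28.8, 6.61 and 14.7. When regions of different lists had to overlap by at least 1 nt, or when list 1 was left out, Scrib had no shared region.

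Magi1 encodes a membrane-associated scaffold with PDZ and WW domains. Its span is the longest of the 9 genes, chromosome 6, 93675453 to 94283929 on the minus strand, or 608 kb. It held 29, 14 and 13 sites in lists 1, 2 and 3 (18.7 ± 8.96, SD, n = 3 lists), with list 1 above both others. Its regions in all 3 lists were a single nucleotide at 93911089, a region at 94135179 to 94135192 and a region at 94197238 to 94197248. The single nucleotide scored 60.3, 52.9 and 21.1 in lists 1, 2 and 3, which put it at percentiles 88.5, 89.7 and 55.5 of its list, lowest in list 3. The other 2 lay inside the span of 4930511A08Rik, a long noncoding RNA gene on the same strand, and the second also inside Gm52867, so they could belong to either RNA. The same holds for every Magi1 region from 94135179 to 94236008, among them 94175602 to 94175611, in lists 1 and 2 only. The site and region counts given for Magi1 therefore include sites that could belong to 4930511A08Rik. Of the 22 Magi1 regions, 3 were in lists 1 and 2 only and 1 in lists 1 and 3 only. Without list 3 the gene had 6 shared regions.

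Magi1 regions gathered behind a start inside the gene. The start table gives 2 starts for Magi1, at 93912963 and 93913690, which are 370966 and 370239 nt inside the span, counted along the gene. Within 2000 nt after the first of them lay 8 of the 22 regions, from 211 nt onward, of which 5 were single sites of list 2 alone. The region at 93911089, in all 3 lists, was 1874 nt from it. Over the 8 genes with a start in the table, 18 of 90 regions lay within 2000 nt after a start, against 3884 of 25885 regions (15.0%) in all such protein-coding genes. Of the 18, 8 were those of Magi1 and 5 were all the regions of Cldn4. The Cldn4 span is 1812 nt long, so its regions fell within this limit by construction, also those near its 3′ end. The limit of 2000 nt was chosen after the positions were seen, and within 1000 nt the shares were 11.1% and 11.4%. Within 5000 nt they were 25.6% and 23.8%.

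Cgn encodes cingulin, a plaque protein that links ZO-1 to actomyosin. Its span is short, chromosome 3, 94760069 to 94787725 on the minus strand, or 27.7 kb. It held 19, 9 and 16 sites in lists 1, 2 and 3 (14.7 ± 5.13, SD, n = 3 lists). Per 10000 sites of a list these were 2.58, 2.25 and 2.97. The strongest of its 3 shared regions covered 94769995 to 94770016, held 7, 4 and 5 sites and had highest scores of 93.2, 34.7 and 90.7. Called nucleotides numbered 10 there, and 94770000 and 94770008 were called in all 3 lists. The 3 lists put their highest score on different nucleotides, list 1 on 94770008, list 2 on 94769997 and list 3 on 94770000. A second region, 94760556 to 94760568, lay 487 nt from the 3′ end with scores of 63.6, 25.7 and 68.5, where the span of Gm52626, a long noncoding RNA gene on the opposite strand, overlaps Cgn. The third, 94775950 to 94775951, had highest scores of 1.98, 23.2 and 25.8 in lists 1, 2 and 3, at percentiles 12.9, 70.0 and 62.3, lowest in list 1.

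Tjp1 encodes ZO-1, the scaffold that binds claudins and occludin. Its span covers chromosome 7, 65296165 to 65527850 on the minus strand. It held 14, 7 and 6 sites in lists 1, 2 and 3 (9.0 ± 4.36, SD, n = 3 lists). The single region in all 3 lists, 65322628 to 65322635, had 5, 3 and 5 sites and highest scores of 44.1, 22.5 and 51.0. Of its nucleotides, 65322630 and 65322635 were called in all 3 lists. The first carried the highest score in lists 1 and 2, and the second the highest score in list 3. A further 2 regions of Tjp1 were in lists 1 and 2 only, so that without list 3 it had 3 shared regions. One of these was the nucleotide 65371125, with scores of 5.78 and 4.36 in lists 1 and 2, at percentiles 31.7 and 20.4. It lay 119 nt after the start that the table gives for Tjp1, 65371244, which is 156606 nt inside the span. A list 1 region lay 97 nt after that start.

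Cldn4 encodes claudin 4, a strand protein, and has the shortest span of the 9 genes, chromosome 5, 134945123 to 134946934 on the minus strand, or 1812 nt. It held 4, 3 and 7 sites in lists 1, 2 and 3 (4.67 ± 2.08, SD, n = 3 lists). Both of its shared regions stood near the 3′ end. One, at 134945255 to 134945257, was 132 nt from the end and the other, at 134945462 to 134945466, was 339 nt from it. In both, a single nucleotide was called in all 3 lists and carried the highest score of each. Nucleotide 134945256 scored 81.2, 32.6 and 77.8, and nucleotide 134945463 scored 89.0, 34.6 and 84.5. Both regions stayed shared among the 50% of sites with the highest scores. Of 5034 protein-coding genes with spans up to 5000 nt, 5.76% had a region in all 3 lists.

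Cldn1, Ocln and F11r, which encode claudin 1, occludin and JAM-A, were each touched in 1 or 2 lists without a shared nucleotide. Claudin 1 is required for the water barrier of mouse skin. Cldn1 had 0, 0 and 6 sites in lists 1, 2 and 3, in 3 regions, the strongest at chromosome 16, 26363109 to 26363110, with a score of 32.7. Ocln had 2, 0 and 0 sites, both in the region at chromosome 13, 100546483 to 100546484, with a highest score of 18.1. F11r had 0, 6 and 1 sites, and 4 of its 5 regions in list 2 were single sites. The list that held the sites thus differed from gene to gene, list 3 for Cldn1, list 1 for Ocln and list 2 for F11r. With so few sites, and no depth given, a gene without a site in a list cannot be called untouched there.

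**Figure D3:**
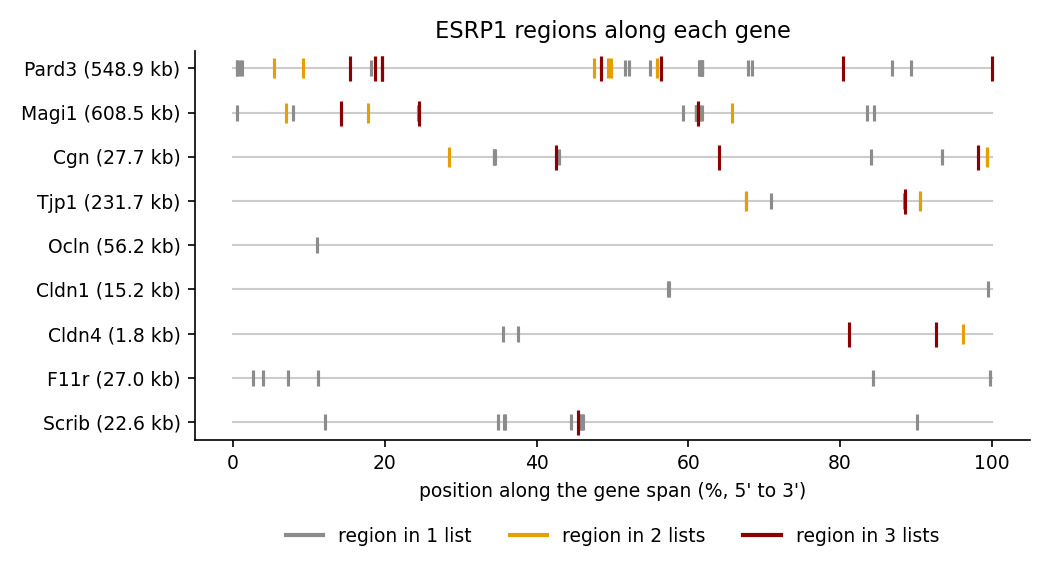
Position of each region along the gene span (percent, from the 5′ end at the left to the 3′ end at the right) for the 9 genes, with colour and length of the tick for the number of lists that hold the region. The regions in all 3 lists were spread along Pard3, and both of Cldn4 stood in the last 20% of its span.

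Sites close to the 3′ end were present in 5 of the 9 genes. Pard3, Cgn, Cldn1, Cldn4 and F11r each had a site in the last 200 nt of the span, which was 55.6% of the genes, against 13.6% of the 7607 protein-coding genes with a site. In the last 500 and 1000 nt it was still these 5 genes, against 25.3% and 35.8%. The number of sites per gene was not matched in this comparison. The nearest region was 98 nt from the end in Pard3, 168 nt in Cgn, 65 nt in Cldn1, 67 nt in Cldn4 and 63 nt in F11r. Counted by regions the difference depended on the window. In the last 200 nt lay 6.93% of the 101 regions of the 9 genes, against 4.52% of all regions. In the last 1000 nt lay 8.91% of them, against 16.9% of all regions. Of the 18 regions in all 3 lists, 2 (11.1%) lay in the last 200 nt, against 6.55% of 6171 such regions in all genes. In the last 500 nt lay 4 (22.2%), against 14.3%, and in the last 1000 nt the same 4, against 22.1%.

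At the level of nucleotides, the 9 genes had 207 called positions, of which 25 were called in all 3 lists, 28 in 2 lists and 154 in 1 list. Pard3 held 13 of the 25, Cgn 5, Magi1 3, and Tjp1 and Cldn4 2 each. All 18 regions in all 3 lists except that of Scrib held at least 1 nucleotide called in every list, and in 6 of the 18 every list put its highest score on the same nucleotide. These 18 regions had a median length of 7.5 nt and a range of 1 to 22 nt. The counts by nucleotide were not made over all protein-coding genes. Whether they are usual for these lists is therefore not known. Regions found in more lists also ranked higher by score. The median percentile of the highest score, averaged over the lists that held the region, was 78.8 for regions in all 3 lists, 59.5 for those in 2 lists and 32.3 for those in 1 list. Of the 68 regions in 1 list, 52 were single sites. Regions in 3, 2 and 1 lists held a median of 8.5, 3 and 1 sites. The highest of more scores tends to be higher by construction, so rank and site number cannot be told apart here. These medians were not computed over all genes.

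Where just 2 lists shared a region of the 9 genes, these were mostly lists 1 and 2. Of the 101 regions, 12 (11.9%, 95% exact binomial interval 6.29 to 19.8) were in lists 1 and 2 only, against 6.69% of regions in all protein-coding genes. In lists 1 and 3 only were 3 (2.97%, 0.617 to 8.44), against 10.9%, and in lists 2 and 3 only were 0 (0 to 3.59%), against 2.76%. The regions in all 3 lists made up 17.8%, against 18.9%. Regions of 1 gene come from the same RNA, so these intervals cover counting error only and are too narrow for a comparison of genes. Pard3 and Magi1 together held 9 of the 12 regions in lists 1 and 2 only. In all genes with spans over 300000 nt, 9.58% of regions were in lists 1 and 2 only and 8.81% in lists 1 and 3 only. Pard3 and Magi1, which have such spans, had 9 of 56 and 1 of 56 regions there. In genes up to 5000 nt the shares were 4.07% and 14.4%. Whether span accounts for the pattern was not tested.

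**Figure D4:**
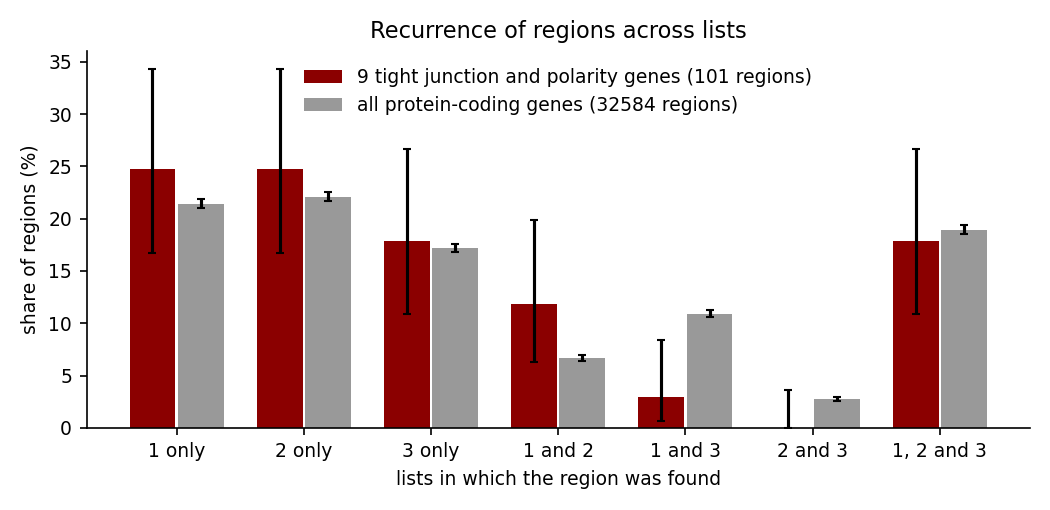
Share of regions (percent) by the lists in which they were found, for the 9 genes (dark red, 101 regions) and all protein-coding genes (grey, 32584 regions), with 95% exact binomial intervals that cover counting error only. The 9 genes had 11.9% in lists 1 and 2 only and 2.97% in lists 1 and 3 only, against 6.69% and 10.9% in all genes.

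Beyond the 9 genes, 51 other genes of the pathway were counted in the same way. Of them 14 (27.5%, 95% exact binomial interval 15.9 to 41.7) had a region in all 3 lists and 31 had a site, against 17.0% of all protein-coding genes with such a region. The median number of such regions was 0 in the 51 genes and 0 in all genes. Their median span was 38064 nt, against 17169 nt in all genes, and in genes from 20000 to 100000 nt the share was 22.4%. By list, 7 of 29 tight junction genes (24.1%) and 7 of 22 polarity genes (31.8%) had such a region.

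By number of regions in all 3 lists, polarity genes were led by Tiam1, which encodes a Rac activator that binds PAR3. It had 39, 44 and 19 sites in lists 1, 2 and 3, and 5 of its 58 regions were in all 3 lists. Over all protein-coding genes 18.9% of regions were in all 3 lists. The weakest of the 5, at chromosome 16, 89842832 to 89842843, had a mean percentile of 20.2. Mark2, encoding the PAR1 kinase, had 21, 8 and 19 sites. In all 3 lists were 4 of its 17 regions, of which 3 lay 371 to 567 nt from the 3′ end. The strongest of these, at chromosome 19, 7275963 to 7275967, scored 107, 53.0 and 107. Dlg1, which encodes a partner of Scribble, had 2 regions, and the one at chromosome 16, 31713455 to 31713456, scored 137, 97.6 and 167. Patj, a scaffold of the Crumbs complex, had 1, at chromosome 4, 98466903 to 98466906. The PAR complex partners of Pard3 differed in their sites. Pard6g had 4, 6 and 3 sites and Cdc42 9, 1 and 4, each with 1 region in all 3 lists. Prkci had 11, 1 and 3 sites and Pard6b 2, 0 and 1, without such a region. Pard6a and Prkcz had no site on their own strand, while the Prkcz span held 10 on the opposite strand. Pard3b, the paralog of Pard3, had a single site, in list 1.

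Among the other tight junction genes Magi2 and Cask had 2 regions in all 3 lists each. Magi2, a scaffold and paralog of Magi1, held 15, 7 and 17 sites, and its strongest shared region lay at chromosome 5, 19585403 to 19585415, with scores of 156, 62.6 and 74.3. Ybx3, encoding a Y-box protein that binds ZO-1, held 6, 17 and 10 sites and 1 such region. Cxadr, Amotl1 and the short gene Cldn23 had 1 each. For Cxadr, Cldn23, Cask and Pard6g the strand was taken as the one with most sites. No site lay on the own strand of Cldn3, Cldn5, Cldn6, Cldn7, Cldn8 or Cldn15, or of the JAM genes Jam2 and Jam3. Mpp5, which encodes PALS1, and Mpdz had none either.

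**Figure D5:**
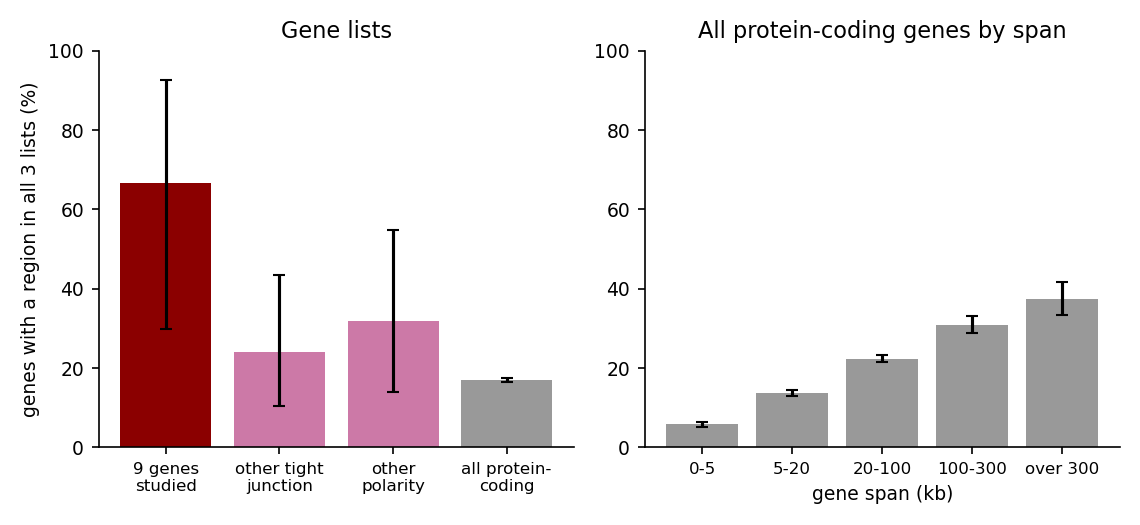
Share of genes that hold a region common to all 3 lists (percent, with 95% exact binomial intervals that cover counting error only), at the left for the 9 genes, the other tight junction genes, the other polarity genes and all protein-coding genes, and at the right for all protein-coding genes by span in kb. The share was 66.7% in the 9 genes and 17.0% in all protein-coding genes, and it was higher in longer genes.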

How the data were processed

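Per the file headers, the authors called each list on 2 FLAG replicates with input, and the deposited score of each 1-nt site has no stated scale. Per the submitters' processing notes, the tools were cutadapt 1.16, HISAT2 2.1.0 and HOMER and the builds GRCm38 and mm10, with no roles stated. A title in the labels names PureCLIP. How reads were trimmed, deduplicated and placed among several alignments, and how the caller was set, is not stated in the labels or headers, and each could add or remove sites. Pooled calling hides the spread within a list, and depth is unknown.

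Sites were counted in RefSeq GRCm38.p6 spans (1-based) with Python 3.11.15 and pandas 2.3.3. Strand came from a RefSeq table of gene starts for 17492 protein-coding genes, from the strand with most sites for 1648 (Scrib among them), and 2747 without either had no site. In genes with a table strand 89.5% of sites lay on it. A region under several spans counts for each. The counting was checked on planted sites. No test was made, as the 3 lists are the only repeats and the genes and lists were chosen with earlier results of these data known. Of the pathway lists, all 51 symbols matched, Pals1 as Mpp5. The genes named are the 9 genes, the 8 pathway genes with most regions in all 3 lists (1 of them is not reported here), and others in small counts, named after their values were seen. Planned shares of exons, introns and motifs were not run, as no genome sequence was used here. Alternatives changed the joining and sharing distance, the score threshold, the strand and the lists required.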

Additional observations from a re-analysis of the deposited data

How the results depend on the processing

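The number of genes with a shared region was 6 in the main setting, 5 to 6 when each list was left out in turn, and 5 or 6 under every other alternative run. Scrib was the gene lost, without list 1, with an overlap of 1 nt, and among the 50% of sites with the highest scores. Summed over the 9 genes, shared regions numbered 18, from 17 to 30 when a list was left out. The highest value, 30, came without list 3, where Pard3 had 14 regions, Magi1 6 and Tjp1 3. The background moved as well, with 18.2% to 21.0% of protein-coding genes holding a region shared by the 2 lists left. With the 50% of sites with the highest scores, 12 shared regions were left and sites in the 9 genes averaged 49.0 per list, fewer than in the main setting by the construction of that alternative. The share of the 51 pathway genes with a shared region was 27.5%, and from 29.4% to 35.3% when a list was left out. With the 50% of sites with the highest scores it was 23.5%, against 12.1% of all protein-coding genes in that setting. The count on either strand was chosen after the data were examined and gave 18 shared regions. No paired analysis was possible because each list pools 2 replicates and input is not given apart. The shares in exons and introns and the motif were not run.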

Other observations

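A few sites lay within the spans of Pard3 and Magi1 on the opposite strand, outside the counts of these genes. In Pard3 there were 8, of which 5 lay at chromosome 8, 127589102 to 127589116, in list 1 alone. The other 3 lay at 127448559, in lists 2 and 3, and at 127448607, in list 3, inside the long noncoding RNA gene Gm9909, which the start table puts on the minus strand. In Magi1 there were 2, at chromosome 6, 93991742 to 93991743, in list 1. No opposite-strand region of either gene was in all 3 lists, and the other 7 genes had no such site. Of protein-coding genes with spans over 300000 nt, 46.0% had a site on the opposite strand, against 6.41% of all protein-coding genes.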
